A study of Arabidopsis lyrata with 3 samples.

Results

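SEPALLATA3 (SEP3) windows found in only 1 of the 2 chromatin immunoprecipitation and sequencing (ChIP-seq) libraries of Arabidopsis lyrata are described here. A member is a window of the replicate 1 list with a score of 2 or more that shares no base with any window, of any score, in the replicate 2 list. This rule selected 3290 of the 93693 replicate 1 windows, out of 172904 windows in the series as a whole. Among the 23073 replicate 1 windows that reached the score, the members made up 14.3%, and the other 19783 overlapped a replicate 2 window. The members were thus chosen by their score and by the absence of an overlap, and neither is a finding about them.

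SEP3 belongs to the MADS-domain transcription factors and is active in developing flowers. It assembles into larger complexes with the floral homeotic MADS-domain proteins, and these complexes bind DNA at CArG boxes, AT-rich elements flanked by CC and GG. In A. thaliana it takes part in the specification of petals, stamens, carpels and the determinate floral meristem.

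All chromatin came from wild-type A. lyrata inflorescences carrying buds of floral stage 1 to 10 or 11. For the ChIP libraries it was precipitated with an antibody made against an A. thaliana SEP3 peptide. The replicate 1 plants were vernalised at 8 °C under 16 h of light and 8 h of dark, as were those of the 1 input DNA library. The replicate 2 plants were vernalised with 8 °C days and 4 °C nights, under 12 h of light and 12 h of dark. Vernalisation lasted 7 to 10 weeks and bolting was started at 18 to 22 °C in long days in every case. With 1 ChIP library for each cold treatment, treatment and library cannot be told apart, no test over samples was possible, and all comparisons are descriptions over windows. Read depth is unknown from the lists, so a missing replicate 2 window means only that none was listed at or above the lowest deposited score, 1.01 in both lists.

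Among replicate 1 windows of score 2 or more, the members were weak. Their scores, the authors' deposited values with a formula not given in the sources used here, ran from 2 to 4.62 with a median of 2.19 and an upper quartile of 2.45. The windows with an overlap had a median of 2.64. The share of replicate 1 windows without a replicate 2 overlap fell steadily as the score rose. It was 28.4% (95% Wilson interval 27.3 to 29.6%) at scores from 2 to under 2.25, 18.4% (17.3 to 19.5%) from there to under 2.5 and 9.92% (9.16 to 10.7%) from there to under 3. Above this the members became rare: 123 of 4161 windows (2.96%) scored from 3 to under 4, and 9 of 1689 (0.533%) from 4 to under 6. No member was found among the 852 windows of score 6 or more. The Wilson intervals here and throughout cover counting error over windows only, and neighbouring windows of a library are not independent.

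**Figure D1:**
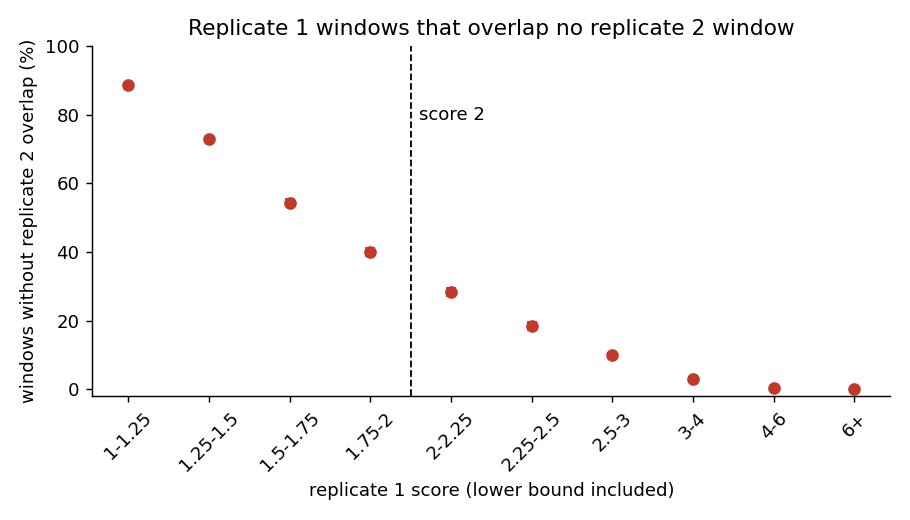
Share of replicate 1 windows that overlap no replicate 2 window (y axis, percent) by replicate 1 score (x axis, lower bound included). Points are shares and bars are 95% Wilson intervals, mostly smaller than the points; the share declines from 88.5% below a score of 1.25 to 28.4% just above the dashed limit of 2 and to 0 of 852 windows at 6 or more.

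The limit of 2 fell on a score that many windows shared. Of the members, 501 scored exactly 2 and would be left out by a rule of scores above 2. Just outside, 8 windows without an overlap scored 1.99. The first members inside the limit, in order of position, lay on scaffold 1 from 943071 to 943493, from 1087833 to 1088256 and from 1829739 to 1829966. Windows just outside lay on scaffold 1 from 5333277 to 5334198 and on scaffold 4 from 11003145 to 11003530 and from 14903298 to 14903623. At scores from 1.75 to under 2, the share without an overlap was 40.0%, and over replicate 1 windows of every score it was 59.8%.

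The replicate 2 windows that kept a replicate 1 window out of the set were often weak, as was the replicate 2 list as a whole. Its median score was 1.20, below the medians of the partners given next. The best partner is the overlapping replicate 2 window of highest score. Replicate 1 windows of score 2 to under 2.25 with an overlap had a best replicate 2 partner with a median score of 1.32, and 38.2% of these partners scored under 1.25. For replicate 1 scores from 3 to under 4 the median partner score was 1.75 and 9.39% were under 1.25. Near the limit, many of the partners thus lay close to the lowest score their list holds, as did most windows of that list. Where several windows overlapped, taking the highest raised the partner score. The partners are therefore not shown to differ from the list.

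Most members lay near a replicate 2 window without touching it. The gap, counted as the bases between the nearest edges, had a median of 713 bp (95% interval of the median 683 to 758 bp), with quartiles of 322 and 1482 bp. Of the 3290 members, 264 (8.02%) had a replicate 2 window less than 100 bp away, 2021 (61.4%) less than 1000 bp away and 3199 (97.2%) less than 5000 bp away. A replicate 2 window lay less than 10000 bp away for 3277 members (99.6%). Replicate 2 windows were close together across their list, with a median of 1110 bp between neighbours. With a minimum score of 1.5 in replicate 1, the median gap was 753 bp. No gap was computed for a background of positions, so the nearness is not shown to be particular to the members. The nearest replicate 2 window lay on the side of the lower coordinate in 1640 cases (49.8%). The median score of this window was 1.20, as for all of replicate 2, and its median width was 176 bp, against 173 bp for all of replicate 2. It overlapped some other replicate 1 window in 68.9% of cases (95% Wilson interval 67.3 to 70.5%), against 74.5% (74.2 to 74.9%) of all replicate 2 windows. The median member score was 2.19 in each of 6 gap classes. Many member scores were tied, 501 of them at exactly 2, and their quartiles were 2.06 and 2.45. Equal medians therefore cannot show that score and gap were unrelated.

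**Figure D2:**
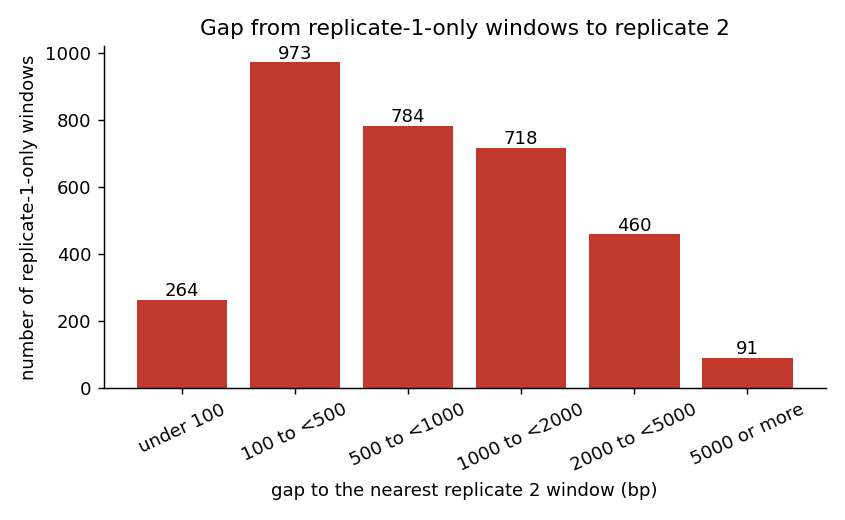
Number of replicate-1-only windows (y axis) by gap in bp to the nearest replicate 2 window (x axis); the bars are counts of members and add up to 3290. The class from 100 to under 500 bp is the fullest with 973 members, and 91 lie 5000 bp or more away.

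The 10 members of highest score were spread over 4 scaffolds, and each had at least 4 replicate 2 summits within 10000 bp. The highest, on scaffold 3 from 19556739 to 19558807, scored 4.62 and lay 872 bp from a replicate 2 window of score 1.21. Its summit stood outside genes, 878 bp from the protein-coding gene LOC9319934 and 2002 bp from LOC9319935. Scaffold 1 held 4 of the 10. The window from 5997409 to 5998191 scored 4.56, lay 1064 bp from the nearest replicate 2 window and had its summit 164 bp from LOC9326108. The window from 12207918 to 12211390 scored 4.33 and, at 3473 bp, was also among the widest members; its summit lay inside LOC9326812. The window from 26726022 to 26726578 scored 4.04, with its summit inside LOC9330350. The window from 21886401 to 21887567 scored 3.98, with its summit 60 bp from LOC110225246, a long non-coding RNA gene. Its gap of 2035 bp was the longest among the 10.

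On scaffold 6, 3 windows scored 4.11. The window from 3651834 to 3653663 had its summit inside LOC9307430, and its nearest replicate 2 window, 710 bp away, scored 1.93. The window from 5333111 to 5334918 came closest to an overlap, with a replicate 2 window of score 2.36 only 89 bp away, and its summit lay 2407 bp from LOC9307626. The third, from 19696761 to 19697198, had its summit 1785 bp from the long non-coding RNA gene LOC110227202. Scaffold 8 held the remaining windows. The window from 15261766 to 15262341 scored 4.17, with its summit inside LOC9300267. That from 17151411 to 17152382 scored 4.11, with its summit between LOC9302185 and LOC9300485, 663 and 671 bp away. Summits of 4 of the 10 thus lay inside a protein-coding gene. The functions of these genes are not annotated in the sources used here.

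The 5 members farthest from replicate 2 scored 2.13 to 3.34, and 4 of them had their summit inside a gene or within 1000 bp of one. The largest gap, 18370 bp, belonged to a window of score 2.13 on scaffold 3 from 11118943 to 11119582, with its summit inside LOC9321663. The replicate 2 window at the end of that gap scored 21.21. A second member of the same stretch, from 11126137 to 11126607, scored 2.32 and lay 13363 bp from replicate 2. Its summit was 343 bp from LOC9321664. On scaffold 4 the window from 6795944 to 6796961 scored 3.34 with a gap of 15358 bp. It stood apart from genes too, with its summit 14736 bp from LOC110229396. On scaffold 8 the windows from 6252665 to 6253553 and from 15757480 to 15758665 scored 2.13 and 2.57, with gaps of 15247 and 14102 bp. Their summits lay 642 bp from LOC9299838 and 471 bp from LOC9300320. Each of these 5 windows had another replicate 1 window at a gap of 264 to 2590 bp.

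Members were narrower than the replicate 1 windows that overlapped replicate 2. Their median width was 535.5 bp (95% interval of the median 525 to 548 bp), against 873 bp (863 to 882 bp) for the overlapping windows. The difference was present at each score: from 2 to under 2.25 the medians were 494 bp for members and 681 bp for overlapping windows, and from 3 to under 4 they were 706 and 1031 bp. Read the other way, 33.2% of replicate 1 windows over 300 and up to 400 bp wide had no overlap, against 2.52% of those over 1200 bp. A wide window has more bases with which to meet another, so part of this difference is built into the rule. With the rule applied to the summit alone, the medians were 724 bp for windows whose summit lay in no replicate 2 window and 868 bp for the others. Summed up, the members covered 2.06 Mb, 8.95% of the 23.0 Mb covered by replicate 1 windows of score 2 or more.

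**Figure D3:**
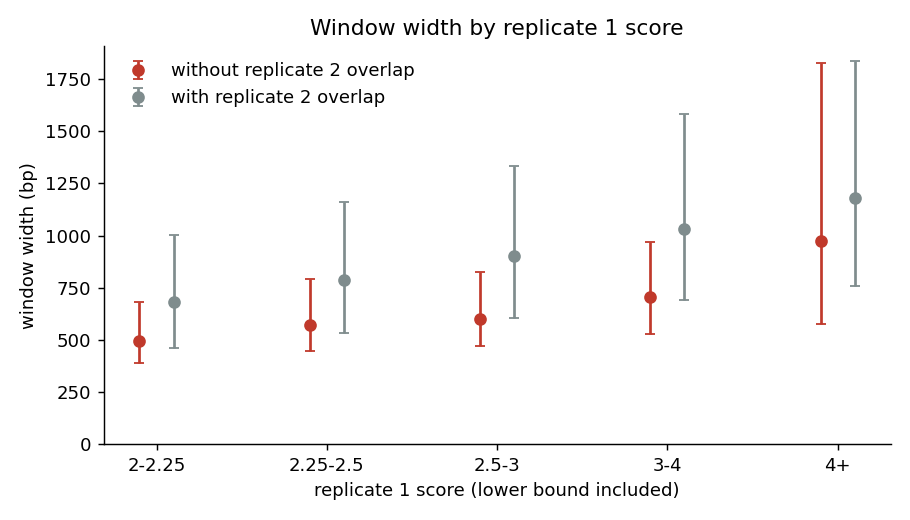
Window width in bp (y axis) by replicate 1 score (x axis, lower bound included) for windows without (red) and with (grey) a replicate 2 overlap. Points are medians and bars run from the lower to the upper quartile; the medians without an overlap are 494 bp in the lowest and 972 bp in the highest class, each below the median with an overlap, 681 and 1182.5 bp.

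Some members were wide all the same. The widest, on scaffold 3 from 17625934 to 17629488, measured 3555 bp and scored 2.83, and its summit lay inside LOC9321918. The next after the scaffold 1 window described above measured 3397 bp, on scaffold 5 from 1663463 to 1666859, and scored 2.38. Its summit lay inside LOC110228338. Nearest replicate 2 windows stood 598 and 1217 bp away. Within the windows, summits sat near the middle, at a median of 47.3% of the width for members and 48.5% for overlapping windows. Summits close to an edge, within 10% of the width, were found in 0.304% of members and 1.35% of overlapping windows.

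Members were present on all 9 scaffolds, in shares that ranged over few percentage points. Between 12.8% of replicate 1 windows of score 2 or more (scaffold 5, 327 of 2557, 95% Wilson interval 11.5 to 14.1%) and 15.8% (scaffold 3, 422 of 2673, 14.5 to 17.2%) were members, against 14.3% over all scaffolds. On scaffold 1 it was 548 of 4029 (13.6%), and on scaffold 9, the smallest, 25 of 194 (12.9%, 95% Wilson interval 8.88 to 18.3%). Members numbered 13.3 to 18.7 per Mb, and their median score lay between 2.19 and 2.21 on each scaffold. Of the 132 members with a score of 3 or more, scaffold 6 held 28 and scaffold 1 held 23. These scaffolds held 3052 and 4029 replicate 1 windows of score 2 or more. Windows of score 3 or more with an overlap were not counted by scaffold, so no concentration is shown. At a finer scale the shares spread more. Bins hold fewer windows than scaffolds, so counting error is larger there, and whether the spread exceeds it was not tested. Over the 182 bins of 1 Mb with 20 or more replicate 1 windows of score 2, the share had quartiles of 11.8 and 16.7%. The fullest bin, on scaffold 4 from 15 to 16 Mb, held 35 members among 124 windows (28.2%). The lowest share, 1 of 32 windows (3.12%), was found at the end of scaffold 5 from 21 to 22 Mb. Of the 191 bins with a replicate 1 window of score 2 or more, 2 had no member, the last bins of scaffolds 3 and 6, with 12 and 11 windows of that score. A further 10 bins held no window of any score from either list.

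**Figure D4:**
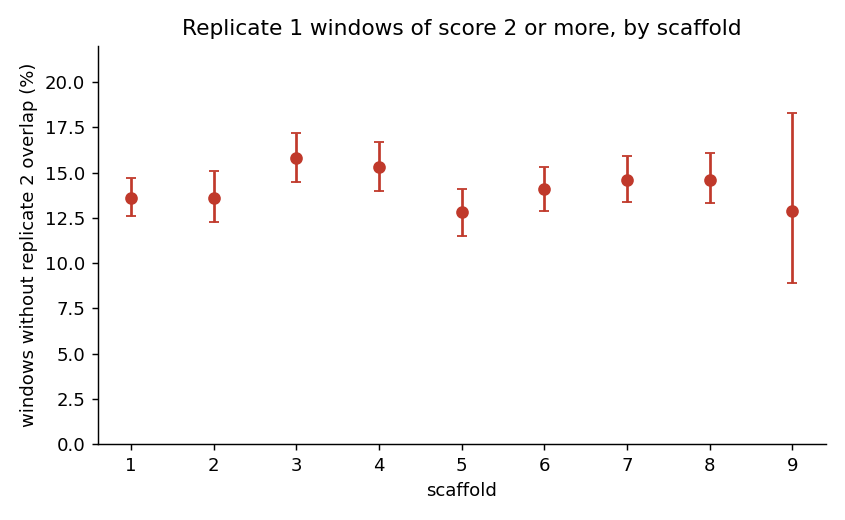
Share of replicate 1 windows of score 2 or more that overlap no replicate 2 window (y axis, percent) on each of the 9 scaffolds (x axis). Points are shares and bars are 95% Wilson intervals; shares lie between 12.8% on scaffold 5 and 15.8% on scaffold 3, and the interval of scaffold 9 is the widest because it holds 194 such windows.

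Most members were the only one between neighbouring replicate 2 windows. They fell into 3081 spaces without a replicate 2 window, 2 of them at a scaffold end, of which 2884 held 1 member, 186 held 2, 10 held 3 and 1 held 4. Spaces that held a member were longer, at a median of 4262 bp against 1110 bp for all 64495 spaces of the list; a longer space has more room for a member. Another member lay within 1000 bp of 5.81% of members and within 10000 bp of 37.6%. Over all replicate 1 windows of score 2 or more, 10179 (44.1%) and 21924 of 23073 had another window of that larger set at these distances. The surroundings of members and of overlapping windows differed little. The mean number of replicate 2 summits within 10000 bp, not counting overlapping windows, was 8.21 for members and 8.41 for overlapping windows. The nearest other replicate 1 window of any score was a median of 337 bp away from members and 304 bp from overlapping windows. No 2 neighbouring windows in either list lay closer than 100 bp.

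Members stood inside genes more often, and outside them closer to genes, than overlapping windows did. Of the 3290 member summits, 971 (29.5%, 95% Wilson interval 28.0 to 31.1%) lay inside an annotated gene, against 3979 of 19783 overlapping windows (20.1%, 19.6 to 20.7%). Genes cover 41.2% of the scaffold length. A further 44.0% of member summits and 43.0% of overlapping summits fell in the first 1000 bp beyond a gene. Farther out, up to 3000 bp from a gene, lay 15.8% of members and 23.4% of overlapping windows, and beyond 3000 bp 10.6 and 13.6%. Outside genes the median distance to the nearest gene was 518 bp (485 to 572 bp) for members and 874 bp (849 to 898 bp) for overlapping windows. The nearest gene was protein-coding for 90.9% of members and 90.2% of overlapping windows, and a long non-coding RNA gene for 5.99 and 6.21%. The gene table has no strand, so 5′ and 3′ flanks could not be distinguished.

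The higher share inside genes was found at each score. From 2 to under 2.25 it was 30.8% (28.6 to 33.0%) of members and 21.8% (20.6 to 23.0%) of overlapping windows, and from 2.25 to under 2.5 it was 26.7 and 19.6%. From 2.5 to under 3 it was 28.6 and 18.7%, and from 3 to under 4, 34.1% (26.4 to 42.9%) and 18.9% (17.7 to 20.2%). Of the 9 members of score 4 or more 4 lay inside a gene, which leaves an interval of 18.9 to 73.3%. Width moved with the share as well, which was 38.5% for members over 300 and up to 400 bp wide and 24.0% for those over 600 and up to 800 bp. Members had the higher share in all 6 width classes, from 27.9 against 23.7% up to 300 bp to 33.8 against 15.8% over 1200 bp. With score and width classed together, members had the higher share in 17 of the 20 classes that held 20 or more windows of both kinds. With the rule applied to the summit alone the difference was smaller, with 23.7% of windows whose summit lay in no replicate 2 window inside genes, 3.73 percentage points more than of the others.

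**Figure D5:**
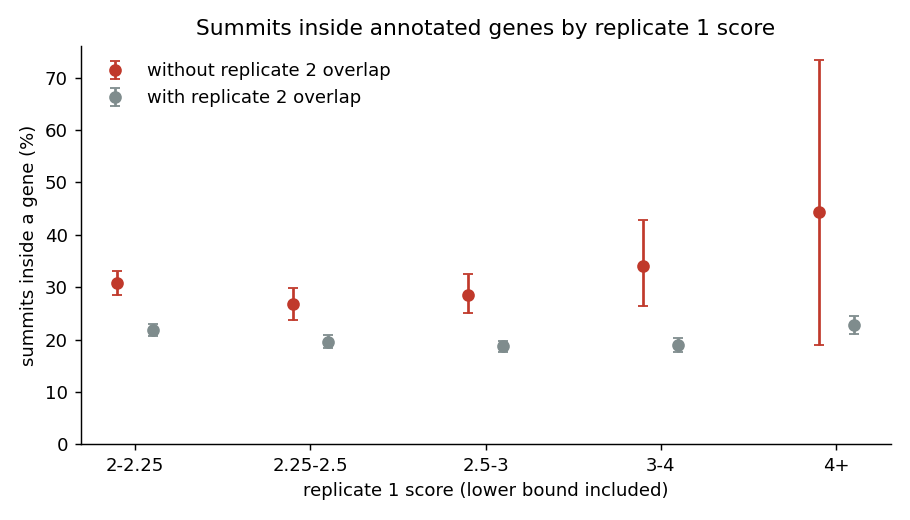
Share of summits inside an annotated gene (y axis, percent) by replicate 1 score (x axis, lower bound included) for windows without (red) and with (grey) a replicate 2 overlap. Points are shares and bars are 95% Wilson intervals; the red points lie between 26.7 and 44.4% and the grey ones between 18.7 and 22.7%, and the intervals overlap only at scores of 4 or more, where 9 windows had no overlap.

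Among the members themselves, position relative to genes varied with the gap to replicate 2. The share inside genes was 23.9% (95% Wilson interval 19.1 to 29.4%) of the 264 members with a gap under 100 bp. It was 26.0% from there to under 500 bp, 30.0% to under 1000 bp and 32.0% to under 2000 bp. Among the 460 members with a gap from 2000 to under 5000 bp it was 35.4% (31.2 to 39.9%). The 91 members farther away had a share of 29.7% (21.3 to 39.7%), an interval that overlaps those of the first class and of the one before it.

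The member summits inside genes fell in 935 genes, of which 906 held 1 and 25 held 2. The 4 genes with more were singled out after their values were seen. LOC110224423, a protein-coding model of 84732 bp on scaffold 1, held 5 members of score 2.06 to 2.76 between 18276218 and 18281498. Of these, 4 lay together in a space of 7706 bp without a replicate 2 window, the only space with 4 members. LOC9306693, of 34554 bp on scaffold 7, held 4 members with scores of 2.98, 3.02, 2.96 and 3.34, the last at a gap of 6297 bp from replicate 2. LOC9325213 on scaffold 2 and LOC9309382 on scaffold 6 held 3 each, with scores of 2.06 to 2.38 and of 2.06 to 2.57. A long gene has more room for several windows.

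In the other direction windows of a single library were rarer but reached far higher scores. Of the 5030 replicate 2 windows of score 2 or more, 148 (2.94%, 95% Wilson interval 2.51 to 3.45%) overlapped no replicate 1 window. The lists differ in extent, since replicate 1 windows cover 20.2% of the scaffolds and replicate 2 windows 7.78%, so a replicate 2 window had more replicate 1 sequence to meet. A score of 4 or more was reached by 9 of the 3290 replicate-1-only windows and by 50 of the 148 replicate-2-only windows. The replicate-1-only windows were wider, with a median of 535.5 bp against 222.5 bp, and lay inside genes in 29.5% against 12.2% (7.83 to 18.4%). Over all 23073 replicate 1 windows of score 2 or more, 1689 scored from 4 to under 6 and 852 scored 6 or more. Of their summits, 21.5% lay inside genes. The same shares over all 5030 replicate 2 windows were not computed. The contrasts in score and in genes are thus not shown to be particular to windows of a single library. Whether the lists share a score scale is not stated, and the difference between the directions was not tested.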

How the data were processed

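SEP3 ChIP windows from 2 A. lyrata libraries, 1 list per library, were used; the input library has no list of its own here, and the A. thaliana list was not used. Per the file headers, each list gives a scaffold, start, end, summit position and score for each window. The score is the authors' deposited value, with no formula given in the sources used here, and the deposited window length in bp, an other column per the file headers, equals end minus start plus 1. The submitters' processing notes name CASAVA. The aligner, the peak caller, their settings and the use of the input were not given in the sources used here. File names carry the build Araly1, and all coordinates are on it, counted as deposited. Read depth is unknown, which leaves the precision of single windows unknown.

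Windows overlapped if they shared at least 1 bp. Shares have 95% Wilson intervals, and medians have exact order-statistic intervals. No p-value was computed. Gene positions came from RefSeq's gene table of assembly v.1.0, which names no scaffold for these genes and gives no strand. Its first 9 blocks of rising start positions, 33239 of 34365 genes, were taken as scaffolds 1 to 9. As a check, 43.1% of all replicate 1 summits of score 2 or more lay within 1000 bp outside a gene with this placement, against 13.9 to 15.0% with the blocks moved on by 1 to 8 places. Block ends and last windows differed by at most 31587 bp. Positions relative to genes rest on the table and the build Araly1 being the same assembly. No genome sequence was used here, so no window sequence or CArG box is given.

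Windows were named by a rule: the 10 of highest score, the 5 farthest from replicate 2, the 3 widest and 3 on either side of the limit, ties by position. The members, measures and comparisons were chosen with earlier results of these data known. Computation used Python 3.11.15, pandas 2.3.3, numpy 2.4.6 and scipy 1.17.1, and the interval functions were tested on simulated windows.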

Additional observations from a re-analysis of the deposited data

How the results depend on the processing

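Alternatives changed the set more than its traits. The number of members was 12127 (29.5% of windows at that score) with a minimum score of 1.5, 688 (5.59%) with 2.5 and 132 (1.97%) with 3. It was 3026 (13.1%) and 2053 (8.90%) with replicate 2 windows widened by 100 and 500 bp on each side, 8994 (39.0%) when the replicate 1 summit had to lie inside no replicate 2 window, and 6399 (27.7%) when only replicate 2 windows at or above that list's median score counted. It was 5820 (25.2%) with replicate 1 windows reduced to 200 bp around the summit, an alternative chosen, as was that of protein-coding genes, after seeing the data. The median gap was 823 bp with a minimum score of 3, 1263 bp against these stronger replicate 2 windows and 439 bp with reduced windows. It was 0 under the summit rule, where an overlapping window counts as a gap of 0. With the 2 widenings it was 811 and 1223 bp, still measured to the replicate 2 windows as deposited. Gaps under 100 or 500 bp had left the set there, so these medians were bound to rise. The median width was 412, 617.5 and 714.5 bp for minimum scores of 1.5, 2.5 and 3. It was 724 bp under the summit rule and 603 bp against the stronger windows. With reduced windows it was 698 bp, taken over the full deposited widths of the windows selected. The scaffold with most members was scaffold 1 with 16.7%, but scaffold 6 with 21.2% (28 of 132) at a minimum score of 3. All replicate 1 windows of that score were not counted by scaffold for comparison. The share of summits inside genes was 36.0 and 34.8% with minimum scores of 1.5 and 3, 31.9% with 500 bp widening, 23.7% under the summit rule, 26.0% against the stronger windows, 25.7% with reduced windows and 28.0% for protein-coding genes. In each of these 10 settings it stayed above that of the replicate 1 windows left out of the set, 18.7 to 22.4%. The share outside genes within 1000 bp was 38.8% with a minimum score of 1.5, 46.0% with 500 bp widening and 41.6% for protein-coding genes. All settings but that of protein-coding genes, which changes only the annotation, change which windows belong; other causes were not tested. No paired analysis was possible because each cold treatment has 1 ChIP library and the rule needs both lists, so neither replicate could be left out. Without the read depth, the members that a deeper replicate 2 would match cannot be told.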

Other observations

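Replicate 1 windows below the score limit showed the same ordering relative to genes. At scores from 1.75 to under 2, 33.8% (95% Wilson interval 32.0 to 35.6%) of the 2596 windows without a replicate 2 overlap had their summit inside a gene, against 25.2% (23.9 to 26.6%) of the 3898 with one. From 1.5 to under 1.75 the shares were 40.3 and 29.2%. From 1.25 to under 1.5 they were 50.1 and 36.1%. Below 1.25 they were 57.7% (57.2 to 58.3%) of 31280 windows and 38.1% (36.6 to 39.6%) of 4062. These weakest windows were also short, with median widths of 53 bp without and 96.5 bp with an overlap. Genes cover 41.2% of the scaffold length, so below a score of 2 the windows without an overlap that scored under 1.5 lay inside genes more often than that, and the other classes did not. Whether width or score accounts for the difference was not tested.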
